A study of Mus musculus with 36 samples.

Results

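The 9 genes described here code for myelin proteins (Mbp, Pmp22, Cnp and Mag) and for proteins that immature or injured Schwann cells make (Ncam1, L1cam, Gap43, Ngfr and Nes), and they were followed in enteric glial cells (EGCs) exposed to tumor medium. They were chosen by name, as 9 of the 43472 genes in the count table. Counts came from 36 QuantSeq libraries, which read the 3′ ends of mRNA, of wild-type (WT) EGCs grown from neurospheres of embryonic mouse intestine, from embryos of the C57BL/6J strain at E13.5. EGCs were left unstimulated, or received medium conditioned overnight by digested healthy colon (H-CM) or by digested orthotopic MC38 colorectal tumors (TME-CM, for tumor microenvironment), for 6 h, 12 h or 24 h. Each of the 9 groups had 4 libraries. Every group thus carried the same genotype, and the cells came from embryonic intestine and not from adult colon. The sources used here do not say whether the 4 libraries of a group came from separate cultures, so that p-values measure the spread between these libraries, which may be technical.

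Myelin is the layered membrane that Schwann cells wrap around axons. MBP and PMP22 belong to its compact layers, CNP to its noncompact cytoplasmic channels, and MAG to the membrane that faces the axon. After nerve injury, Schwann cells are known to lower their myelin genes and to make again proteins of their immature state, among them the adhesion molecules NCAM1 and L1CAM, the growth-associated protein GAP43, the low-affinity neurotrophin receptor p75 (encoded by Ngfr) and the intermediate filament nestin (encoded by Nes). Enteric glia share the neural crest origin of Schwann cells and do not form myelin in the gut wall, and nestin and NCAM1 are known from developing muscle as well as from neural cells.

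Of the 9 genes, 6 had a promoter window in the RefSeq table (250 bases before to 50 after a start, build GRCm38.p6), with 12 windows in all. The table held none for Mbp, Gap43 and Ncam1. The bases before the start are shown for Nes, which was lower in TME-CM than in unstimulated EGCs. They are also shown for the myelin genes Cnp and Mag, which did not pass the test or were barely detected. Each is written 5′ to 3′ on the strand of the gene and stops before the first annotated base of the gene. Capitals mark matches to the words searched on both strands. These were ACAAAG and ACAATG (SOX factors, of which SOX10 is the regulator of glial and Schwann identity), GCGNGGGCG (EGR), TGANTCA (AP-1), a word for NF-kB, TTCNNNGAA (STAT) and ACGTG (hypoxia response).
Nes, chr3:87970843-87971077, plus strand: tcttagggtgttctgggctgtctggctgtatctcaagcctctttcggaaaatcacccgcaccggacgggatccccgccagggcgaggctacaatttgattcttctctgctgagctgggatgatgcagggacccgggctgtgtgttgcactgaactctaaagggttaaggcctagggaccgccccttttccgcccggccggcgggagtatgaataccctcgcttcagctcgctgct
Cnp, chr11:100574689-100574903, plus strand: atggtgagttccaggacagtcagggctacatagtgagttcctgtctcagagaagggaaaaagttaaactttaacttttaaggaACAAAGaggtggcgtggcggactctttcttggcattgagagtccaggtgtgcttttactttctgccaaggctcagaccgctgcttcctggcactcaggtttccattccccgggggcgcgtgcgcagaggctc
Mag, chr7:30914874-30915113, minus strand: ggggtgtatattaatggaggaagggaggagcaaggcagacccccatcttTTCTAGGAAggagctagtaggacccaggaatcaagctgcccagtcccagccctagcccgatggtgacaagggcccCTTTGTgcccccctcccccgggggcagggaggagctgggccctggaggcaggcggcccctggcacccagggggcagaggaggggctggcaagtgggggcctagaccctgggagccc

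The Nes window held none of the words. The Cnp window held ACAAAG 167 bases before its start. In the Mag window shown, the reverse complement of this word lay 126 bases before the start and a STAT word 201 bases before it. The word ACAAAG was present in 18.7% of the 32851 windows of the table, the STAT word in 8.3% and the hypoxia word in 19.6%, so that each of these matches is also common elsewhere. Of the 2 other Mag windows, 1 overlaps the window shown and held the same matches, which lie 67 and 142 bases before its own start. The other held the STAT word alone. Of the other members, 1 of 4 Pmp22 windows and the Ngfr window held ACGTG, 38 bases after and 211 bases before the start, and neither L1cam window held any of the words.

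Libraries of 6 h were the least precise. The median library held 1526580 counts at 6 h, beside 4090589 at 12 h and 5465090.5 at 24 h, and the lowest library, H-CM 6 h replicate 4, held 13518 counts. The biological coefficient of variation fell from 75.6% at 6 h over 35.0% at 12 h to 21.3% at 24 h. A single entry of the table, Yam1, took 11% to 48.6% of the counts of a library. As a check of the cell type, all 10 enteric glial markers had counts in every group. Sox10 had means of 60.0 to 87.8 CPM over the 9 groups (CPM are counts scaled to a common library total, here on library sizes adjusted with TMM factors). Gfap had means of only 1.08 to 4.09 CPM. The summed level of the 10 glial markers had group medians of 426 to 947 CPM. The cultures also held RNA of other types. The summed level of 7 fibroblast and mesenchyme markers had group medians of 5276 to 7777 CPM, that of 12 enteric neuron markers 492 to 841 CPM, and that of 7 smooth muscle and myofibroblast markers 2123 to 7481 CPM. Of 6 epithelial markers, Krt8 had 0 counts in 7 of the 9 groups, and the summed level did not exceed 11.5 CPM in any library.

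A gene was called where the adjusted p was under 0.05 in edgeR's quasi-likelihood test (Benjamini-Hochberg over all genes tested at that time). Mag had too few counts to be tested, so that 8 members entered each comparison. In TME-CM against unstimulated EGCs, 2 of the 8 were called at 12 h and the same 2, Ncam1 and Nes, at 24 h, both lower in TME-CM EGCs. The background of this comparison was 4.41% of 12156 genes at 12 h (1.74% lower) and 9.52% of 12713 genes at 24 h (4.7% lower). In H-CM against unstimulated EGCs, Ncam1 alone was called, at 24 h and lower, where 2.03% of all genes were called (0.96% lower). At 12 h, 0 members and 0.403% of all genes were called in that comparison by edgeR (2 members, Ncam1 and Nes, at an unadjusted p under 0.05, and 0 by DESeq2).

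Setting tumor medium against medium of healthy colon called 0 members by edgeR at any of the 3 times, where 0.0972% of all genes were called at 6 h, 1.89% at 12 h and 5.4% at 24 h. At an unadjusted p under 0.05, 0 members passed at 6 h, 2 at 12 h (Ncam1 and Nes) and 1 at 24 h (Pmp22). DESeq2's Wald test called 0 at 6 h, Nes at 12 h and Pmp22 at 24 h. The median log2 fold change of the 8 tested members was -0.090 at 12 h and 0.090 at 24 h, beside -0.0011 and 0.0049 over all genes. The plot of fold changes shows these comparisons side by side. The 3 conditions share their libraries between comparisons, so that values against unstimulated and against H-CM are not independent.

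**Figure D1:**
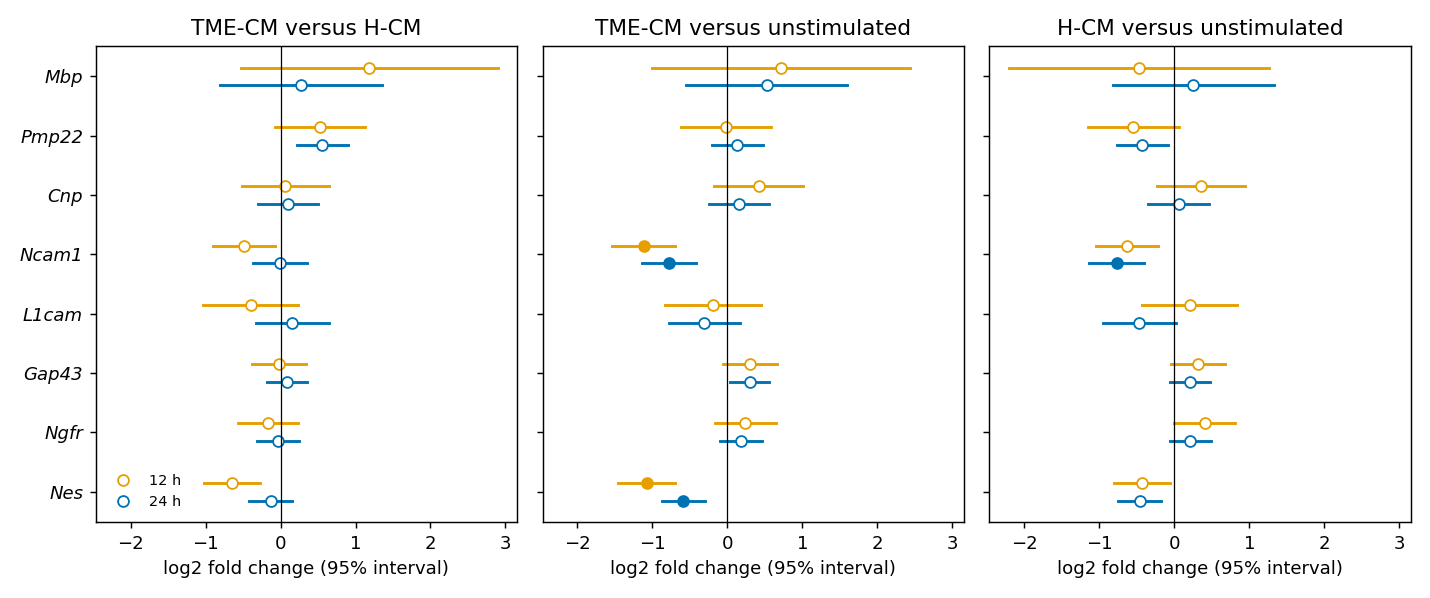
The log2 fold change (x axis) of the 8 tested genes (y axis) is plotted for TME-CM versus H-CM (left), TME-CM versus unstimulated (middle) and H-CM versus unstimulated (right) at 12 h and 24 h, with 95% intervals from edgeR's quasi-likelihood fit and filled points for an adjusted p under 0.05. Filled points are seen only for Ncam1 and Nes, all to the left of 0.

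Ncam1, which encodes the neural cell adhesion molecule (chr9:49502136-49798925, minus strand, GRCm38), was lower in TME-CM EGCs than in unstimulated EGCs. At 12 h, it stood at 430, 315, 374 and 483 CPM in the 4 unstimulated libraries, at 181, 322, 214 and 327 CPM in H-CM EGCs and at 206, 153, 198 and 184 CPM in TME-CM EGCs. Every TME-CM library lay below every unstimulated library, and H-CM EGCs overlapped with both. The level in TME-CM EGCs was 2.17-fold lower than in unstimulated EGCs (log2 fold change -1.12, SE 0.20, adjusted p = 0.0012, edgeR). Against H-CM, the log2 fold change was -0.49 (SE 0.20, 95% interval -0.90 to -0.07, adjusted p = 0.35, edgeR).

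At 24 h, Ncam1 stood at 314, 464, 432 and 546 CPM in unstimulated EGCs, at 184, 243, 290 and 314 CPM in H-CM EGCs and at 288, 217, 295 and 226 CPM in TME-CM EGCs. H-CM and unstimulated EGCs of 12 h differed by -0.63 on the log2 scale (SE 0.20, 95% interval -1.05 to -0.21, unadjusted p = 0.0049, adjusted p = 0.40, edgeR). At 24 h, both media were lower than no stimulation, by 1.71-fold in H-CM (log2 fold change -0.77, SE 0.17, adjusted p = 0.020, edgeR) and by 1.72-fold in TME-CM (log2 fold change -0.78, SE 0.17, adjusted p = 0.0045, edgeR). The H-CM call was kept in 3 of the 8 fits that left out a library, and lost without H-CM replicate 1 or 2 or unstimulated replicate 2, 3 or 4 (adjusted p up to 0.089, without unstimulated replicate 4), whereas the TME-CM call was kept in 8 of 8 at both times. TME-CM and H-CM EGCs differed by -0.01 on the log2 scale (95% interval -0.37 to 0.35, adjusted p = 0.99, edgeR), and their libraries overlapped.

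Within TME-CM EGCs, the 4 libraries of 24 h lay above the 4 of 12 h, with a log2 fold change of 0.47 (SE 0.20) that did not pass the correction (unadjusted p = 0.022, adjusted p = 0.49, edgeR). The order of the group means of Ncam1 ran from unstimulated 24 h (439 ± 96.2 CPM, SD, n = 4) and unstimulated 12 h (400.5 ± 72.4) over H-CM 12 h (261 ± 74.5), H-CM 24 h (258 ± 57.5), TME-CM 24 h (256 ± 40.7), TME-CM 6 h (238 ± 44.0), H-CM 6 h (217 ± 50.01) and unstimulated 6 h (215 ± 81.3) to TME-CM 12 h (185 ± 23.3). Among neighbours in this order, the step between unstimulated 12 h and H-CM 12 h was larger than the SD of either group, and each other step was within the larger SD of its pair. A total of 417 exon bases of Ncam1 are shared with an antisense gene, Gm11149. Reads of the pair cannot be told apart if the counting ignored strand, which the sources used here do not state.

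Nes, which encodes the intermediate filament nestin (chr3:87971078-87980451, plus strand), moved in the same comparison. At 12 h, it stood at 148, 130, 141 and 150 CPM in unstimulated EGCs, at 127, 102, 78.5 and 117 CPM in H-CM EGCs and at 76.8, 65.2, 71.6 and 56.5 CPM in TME-CM EGCs. The 3 groups did not overlap at this time, with TME-CM lowest and H-CM between. The level in TME-CM EGCs was 2.11-fold lower than in unstimulated EGCs (log2 fold change -1.08, SE 0.18, adjusted p = 0.00063, edgeR). Against H-CM, the log2 fold change was -0.65 (SE 0.18, 95% interval -1.02 to -0.27), with an adjusted p of 0.081 by edgeR and of 0.020 by DESeq2. Without H-CM replicate 3, the H-CM library lowest in Nes, the edgeR value was -0.78 with an adjusted p of 0.012. Nes was called in 1 of the 8 fits that left out a library and in 1 of 6 other settings. By edgeR, the adjusted p reached 0.29 without TME-CM replicate 4, and was 0.19 with only the 2 groups in the fit.

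At 24 h, Nes stood at 101, 122, 111 and 133 CPM in unstimulated EGCs, at 99.7, 87.4, 67.7 and 86.2 CPM in H-CM EGCs and at 81.6, 68.7, 84.1 and 76.8 CPM in TME-CM EGCs. Unstimulated libraries lay above those of both media, and the media overlapped. The level was 1.5-fold lower in TME-CM than in unstimulated EGCs (log2 fold change -0.59, SE 0.14, adjusted p = 0.0055, edgeR). For H-CM against unstimulated EGCs, the log2 fold change was -0.46 (SE 0.14), with an adjusted p of 0.0996 by edgeR and of 0.046 by DESeq2. TME-CM and H-CM EGCs differed by -0.13 on the log2 scale (95% interval -0.41 to 0.16, adjusted p = 0.74, edgeR).

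The change of these differences from 12 h to 24 h was tested directly. For Nes, the log2 difference between TME-CM and H-CM EGCs was 0.53 higher at 24 h than at 12 h (SE 0.23, unadjusted p = 0.026, adjusted p = 1, edgeR), and that between TME-CM and unstimulated EGCs was 0.50 higher (SE 0.23, unadjusted p = 0.034, adjusted p = 1, edgeR). Of all genes, 0% and 0.00763% were called in these contrasts, and 0 members by edgeR or DESeq2 (1 member, Nes, at an unadjusted p under 0.05 in each). The change with time within a stimulation also called 0 members with either tool, beside 0.0153% of all genes in unstimulated EGCs, 0.00763% in H-CM EGCs and 0.626% in TME-CM EGCs, with 0, 0 and 1 member (Ncam1) at an unadjusted p under 0.05.

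The order of the group means of Nes ran from unstimulated 12 h (142 ± 9.09 CPM, SD, n = 4) over unstimulated 24 h (117 ± 13.6), H-CM 12 h (106 ± 21.2), unstimulated 6 h (99.0 ± 61.2), TME-CM 6 h (92.6 ± 32.4), H-CM 6 h (87.2 ± 41.7), H-CM 24 h (85.2 ± 13.2) and TME-CM 24 h (77.8 ± 6.80) to TME-CM 12 h (67.5 ± 8.72). The first and the last step of this order were larger than the SD of either neighbour, and each step between was within the larger SD of its pair.

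**Figure D2:**
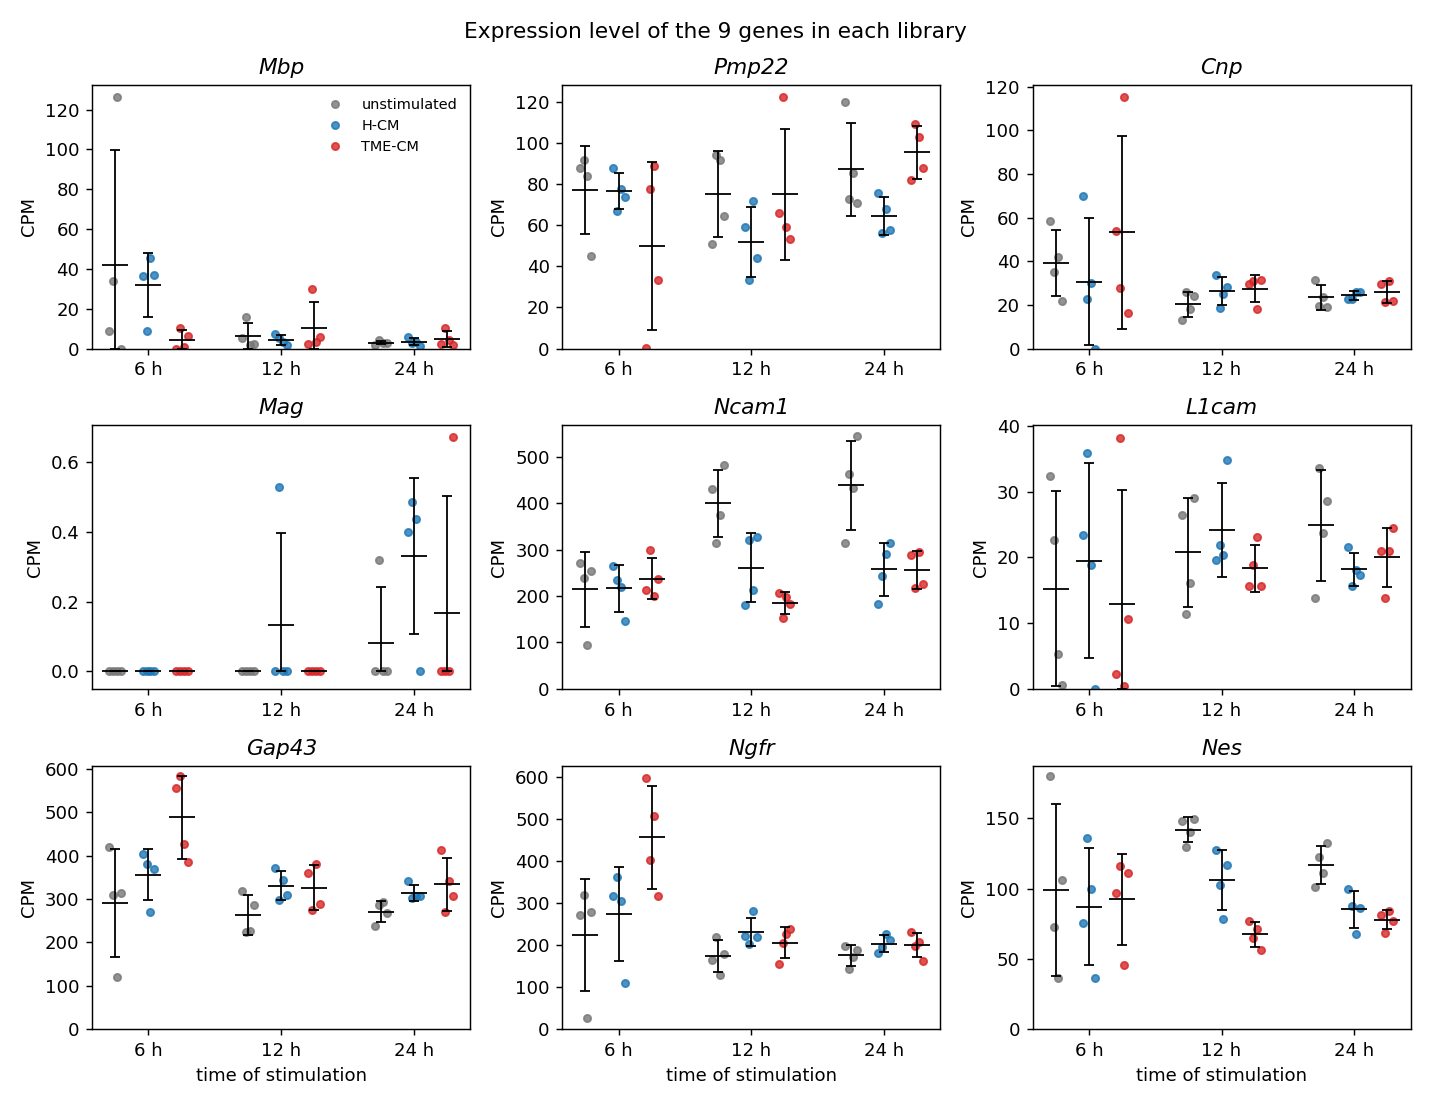
The level of each of the 9 genes is plotted in CPM (y axis) in each of the 36 libraries (points) by time (x axis) and stimulation (gray for unstimulated, blue for H-CM and red for TME-CM), with the mean and SD of 4 libraries in black and the lower bar cut at 0. The unstimulated means stand highest for Ncam1 and Nes at 12 h and 24 h, the 6 h groups spread widely, and Mag lies at or near 0 throughout.

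Smooth muscle and myofibroblast markers were lower, in sum, in both media than in unstimulated EGCs at 12 h and 24 h. The means of Ncam1 and Nes were too. The summed level of these markers (Acta2, Tagln, Myh11, Cnn1, Des, Actg2 and Lmod1) ranged from 4745 to 5154 CPM in unstimulated, 3154 to 4527 in H-CM and 2637 to 2822 in TME-CM libraries of 12 h. At 24 h, it ranged from 7052 to 8095 CPM in unstimulated, 3238 to 4011 in H-CM and 1713 to 2433 in TME-CM libraries. These TME-CM and H-CM ranges did not overlap, whereas Ncam1 and Nes overlapped between the media. The median sum at 12 h and 24 h was 4861 and 7481 CPM in unstimulated and 2751 and 2123 CPM in TME-CM EGCs. For Ncam1, the means were 400.5 and 439 CPM in unstimulated and 185 and 256 CPM in TME-CM EGCs. For Nes, they were 142 and 117 CPM, and 67.5 and 77.8 CPM. None of the 7 markers was at 0 in any group. Of the 7, 6 were called lower in TME-CM than in unstimulated EGCs at 12 h and 7 at 24 h, where 4.41% and 9.52% of all genes were called. In H-CM against unstimulated EGCs at 24 h, 6 were called lower, beside 2.03% of all genes. In TME-CM against H-CM, 3 were called lower at 12 h and 4 at 24 h, where 1.89% and 5.4% of all genes were called. All 7 had lower means in TME-CM than in H-CM EGCs at both times. In no comparison of 12 h or 24 h was any called higher. In bulk libraries, fewer cells of a type and less RNA per cell cannot be told apart, and the part of these markers in the results for Ncam1 and Nes was not tested.

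Markers of other cell types are given for the same libraries. Those named as higher or lower were called by edgeR. At 24 h, 9.52% of all genes were called in TME-CM against unstimulated and 5.4% against H-CM EGCs. The summed level of the 10 enteric glial markers ranged at 24 h from 451 to 506 CPM in unstimulated, 481 to 529 in H-CM and 397 to 475 in TME-CM libraries, and of the 10, Ednrb was higher and Cryab lower in TME-CM than in unstimulated EGCs. Cryab was also lower than in H-CM EGCs. At 12 h, the sum ranged from 509 to 640 CPM in unstimulated, 512 to 717 in H-CM and 428 to 499 in TME-CM libraries, below both other groups, with 0 of the 10 called (edgeR). Sox10 had means of 63.8 CPM in unstimulated, 65.4 CPM in H-CM and 65.8 CPM in TME-CM EGCs of 24 h. The summed level of the 12 enteric neuron markers ranged from 470 to 591 CPM in unstimulated, 483 to 593 in H-CM and 428 to 687 in TME-CM libraries of 24 h, and Vip was the only called marker, higher in TME-CM than in unstimulated EGCs. Of the 7 fibroblast markers, Dcn and Pdgfra were higher and Col1a1 and Pdgfrb lower in that comparison, and in TME-CM against H-CM at 24 h, where Pmp22 and the gene lists are also compared, Col3a1, Dcn, Lum and Pdgfra were higher and Pdgfrb lower. The macrophage marker Cd14 and the proliferation markers Cdk1 and Top2a were higher in TME-CM than in unstimulated EGCs of 24 h, of 6 and 5 tested, and 0 of either list were called against H-CM. Of 5 endothelial markers, 2 could be tested, of which Kdr was lower in TME-CM than in either other group at 24 h, and Cldn5 had 0 counts in every group. The part of these markers in the results was not tested.

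**Figure D3:**
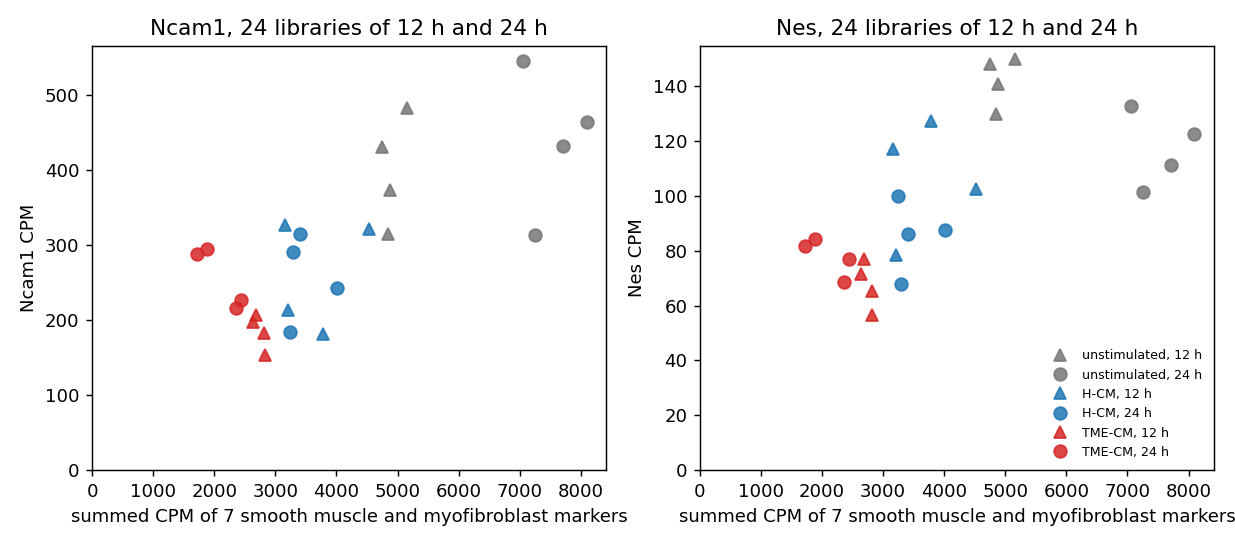
The level of Ncam1 (left) and Nes (right) in CPM (y axis) is plotted against the summed CPM of 7 smooth muscle and myofibroblast markers (x axis) in the 24 libraries of 12 h (triangles) and 24 h (circles), colored by stimulation. TME-CM libraries lie between 1713 and 2822 CPM on the x axis and unstimulated libraries between 4745 and 8095 CPM, with H-CM libraries between them.

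The genes whose log2 level was most like that of Ncam1 over these 24 libraries, out of 10036 that averaged 5 CPM or more, were Lrrfip1 (Pearson's r 0.92), Msrb3 (0.92) and Lmod1 (0.89), the last of which is a leiomodin of smooth muscle and belongs to the marker list above. For Nes, they were Ahnak (0.92), Prkar2a (0.85) and Swap70 (0.84). Ncam1 and Nes had an r of 0.72 with each other, which ranked 118th for Ncam1 and 79th for Nes. These values describe libraries that fall into 6 groups and share stimulation and depth, and no test was made of them.

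Among the myelin genes, Pmp22, which encodes peripheral myelin protein 22 (chr11:63128982-63159547, plus strand), came closest to a difference between the media. At 24 h, it stood at 120, 72.6, 85.3 and 70.6 CPM in unstimulated EGCs, at 75.8, 56.2, 67.6 and 57.4 CPM in H-CM EGCs and at 81.8, 109, 103 and 87.6 CPM in TME-CM EGCs. Every TME-CM library lay above every H-CM library, and both groups overlapped with unstimulated EGCs. The level was 1.47-fold higher in TME-CM than in H-CM EGCs (log2 fold change 0.56, SE 0.17, 95% interval 0.21 to 0.90), with an adjusted p of 0.052 by edgeR, above the threshold. It was 0.034 by DESeq2, 0.014 with no filter on low counts, 0.028 with only the 2 groups in the fit and 0.045 with the replicate number as a block. On leaving out each library, it ranged from 0.033 (without H-CM replicate 1) to 0.19.

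For Pmp22 at 24 h, the log2 fold change against unstimulated EGCs was -0.43 in H-CM (SE 0.17, unadjusted p = 0.017, adjusted p = 0.28, edgeR) and 0.13 in TME-CM EGCs (95% interval -0.21 to 0.47, adjusted p = 0.78, edgeR). At 12 h, Pmp22 stood at 50.9, 93.8, 91.6 and 64.2 CPM in unstimulated, 58.9, 33.1, 71.9 and 43.9 CPM in H-CM and 65.7, 122, 59.0 and 53.2 CPM in TME-CM EGCs, and all 3 groups overlapped. The log2 fold change at 12 h was 0.53 for TME-CM against H-CM (95% interval -0.07 to 1.13, adjusted p = 0.56), -0.02 for TME-CM against unstimulated (-0.62 to 0.58, adjusted p = 0.997) and -0.55 for H-CM against unstimulated EGCs (-1.15 to 0.06, adjusted p = 0.94, all edgeR). Over the 9 groups, the mean of Pmp22 was lowest in TME-CM 6 h (49.9 ± 40.9 CPM, SD, n = 4) and highest in TME-CM 24 h (95.4 ± 12.9).

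Cnp, the gene of the enzyme CNPase of noncompact myelin (chr11:100574904-100591729, plus strand), showed no call. At 24 h, it stood at 31.6, 19.7, 23.7 and 18.9 CPM in unstimulated EGCs, at 22.7, 22.7, 26.1 and 25.7 CPM in H-CM EGCs and at 29.6, 21.1, 30.8 and 21.6 CPM in TME-CM EGCs, with all groups overlapping. TME-CM differed from H-CM EGCs by 0.10 on the log2 scale (95% interval -0.31 to 0.50, adjusted p = 0.88) and from unstimulated EGCs by 0.16 (-0.24 to 0.56, adjusted p = 0.78, both edgeR). Group means ran from 20.3 ± 5.77 CPM (unstimulated 12 h) to 53.2 ± 44.1 CPM (TME-CM 6 h, 16.4 to 115 CPM). Cnp shares 154 exon bases with Dnajc7 on the opposite strand.

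Mbp, the gene of myelin basic protein, was scarce and uneven. At 24 h, it stood at 2.01, 4.17, 2.68 and 2.97 CPM in unstimulated EGCs, at 5.98, 2.76, 3.50 and 1.49 CPM in H-CM EGCs and at 2.31, 10.4, 4.04 and 1.85 CPM in TME-CM EGCs. All groups overlapped, and TME-CM differed by 0.27 from H-CM (95% interval -0.81 to 1.35, adjusted p = 0.88) and by 0.52 from unstimulated EGCs (-0.55 to 1.6, adjusted p = 0.70, both edgeR, log2 scale). At 6 h, the group means were 42.1 ± 57.8 CPM in unstimulated (0 to 126), 32.0 ± 15.9 in H-CM (8.97 to 45.6) and 4.38 ± 4.92 in TME-CM EGCs (0 to 10.5), from 75, 84 and 41 counts in all. The 126 CPM of unstimulated replicate 3 came from 24 counts, and the 36.8 CPM of H-CM replicate 4 from 1 count. TME-CM against unstimulated EGCs at 6 h gave an unadjusted p of 0.032 and an adjusted p of 0.72 (edgeR). In 6 of the 9 groups, the library highest in Mbp was also the library with the highest share of Yam1, and the part of that share in the Mbp values was not tested.

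Mag, the gene of myelin-associated glycoprotein (chr7:30899176-30914873, minus strand), had 0 counts in 30 of the 36 libraries. The other 6 libraries held at most 4 counts each and 18 in all, with a highest level of 0.671 CPM, all at 12 h or 24 h. Of these, 3 were H-CM libraries of 24 h. A count of 0, read as up to 3 counts, allows up to 1.87 CPM in a library of 24 h, and up to 222 CPM in the lowest library of 6 h, by counting error only. These limits are on raw library totals, whereas the levels use TMM-adjusted library sizes. Mag was therefore at or near the limit of detection in every group, and no difference could be tested.

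The other members made by injured and immature Schwann cells, L1cam, Gap43 and Ngfr, did not pass the test in any comparison. L1cam, the gene of the adhesion molecule L1 (chrX:73853778-73896105, minus strand), stood at 24 h at 13.8, 33.6, 23.7 and 28.5 CPM in unstimulated EGCs, at 21.5, 15.7, 18.1 and 17.3 CPM in H-CM EGCs and at 20.9, 13.8, 21.0 and 24.5 CPM in TME-CM EGCs, and the groups overlapped. TME-CM differed from H-CM EGCs by 0.16 on the log2 scale (95% interval -0.33 to 0.65, adjusted p = 0.83) and from unstimulated EGCs by -0.31 (-0.78 to 0.17, adjusted p = 0.56, both edgeR). L1cam shares 100 exon bases with Arhgap4 on the same strand. The mean ran from 12.9 ± 17.4 CPM in TME-CM 6 h to 24.9 ± 8.46 CPM in unstimulated 24 h, a step within the SD.

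Gap43, which encodes a growth cone protein (chr16:42248442-42340651, minus strand), stood at 24 h at 237, 286, 293 and 268 CPM in unstimulated EGCs, at 342, 302, 307 and 306 CPM in H-CM EGCs and at 414, 271, 341 and 308 CPM in TME-CM EGCs. H-CM libraries lay above all unstimulated libraries (adjusted p = 0.62, edgeR), and TME-CM libraries overlapped with both. The log2 fold change of TME-CM was 0.30 against unstimulated (SE 0.13, 95% interval 0.03 to 0.56, unadjusted p = 0.030, adjusted p = 0.19) and 0.08 against H-CM EGCs (95% interval -0.18 to 0.35, adjusted p = 0.84, both edgeR). Group means ran from 264 ± 45.8 CPM in unstimulated 12 h to 488 ± 96.2 CPM in TME-CM 6 h (385.6 to 584 CPM).

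Ngfr, the gene of the p75 receptor (chr11:95568818-95587735, minus strand), showed no call either. At 24 h, it stood at 198, 144, 171 and 189 CPM in unstimulated EGCs, at 181, 196, 226 and 212 CPM in H-CM EGCs and at 232, 199, 207 and 162 CPM in TME-CM EGCs, all overlapping. TME-CM differed from H-CM EGCs by -0.03 (95% interval -0.31 to 0.25, adjusted p = 0.95) and from unstimulated EGCs by 0.19 (-0.09 to 0.46, adjusted p = 0.54, both edgeR, log2 scale). At 6 h, it stood at 598, 403, 507 and 317 CPM in TME-CM EGCs and at 272, 320, 26.3 and 278 CPM in unstimulated EGCs. The groups overlapped, and the difference did not pass the correction (means of 457 and 224 CPM, unadjusted p = 0.039, adjusted p = 0.76, edgeR). Yam1 share and depth also differed between these libraries, and their part in this difference was not tested.

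At 6 h, 0 of the 8 tested members were called in any comparison by edgeR or DESeq2, also in the fits without H-CM replicate 4. The background was 0.0972% of 9256 genes in TME-CM against H-CM, 0.454% in TME-CM against unstimulated and 0% in H-CM against unstimulated EGCs. At an unadjusted p under 0.05, Mbp and Ngfr passed in TME-CM against unstimulated EGCs and no member in the others. Single libraries of this time lacked a gene that their neighbours held. Pmp22 had 1 count in TME-CM replicate 1, beside 81, 216 and 150 counts in the other TME-CM libraries, and L1cam had 1 count in TME-CM replicate 3, beside 10, 40 and 48. For Ncam1, the 95% interval of the log2 fold change of TME-CM against unstimulated EGCs was -0.64 to 0.85, and for Nes it was -1.11 to 0.79.

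Lists of related genes were counted beside the members, which belong to them. Of 23 genes of compact and noncompact myelin, 8 could be tested at 24 h and 0 were called in TME-CM against H-CM or against unstimulated EGCs (2 had an unadjusted p under 0.05 in each, and DESeq2 called 1 and 0). Of all genes, 5.4% and 9.52% were called in these comparisons. The median log2 fold change of the 8 was 0.11 against H-CM and 0.25 against unstimulated EGCs. At 12 h, 7 could be tested and 0 were called in either comparison, with either tool, and 0 had an unadjusted p under 0.05.

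Of the 17 tested regulators of the Schwann lineage and of myelination, 1 was higher and 1 lower in TME-CM than in H-CM EGCs at 24 h, where 5.4% of all genes were called. Sox9, a transcription factor of neural crest and glial progenitors, stood at 53.2 ± 11.9 CPM (SD, n = 4) in unstimulated, 90.7 ± 3.29 CPM in H-CM and 54.2 ± 11.7 CPM in TME-CM EGCs. It was lower in TME-CM than in H-CM (a log2 difference of -0.74, with an adjusted p of 0.0081 by edgeR) and higher in H-CM than in unstimulated EGCs (0.76, adjusted p = 0.013, edgeR), and TME-CM differed from unstimulated EGCs by 0.03 (adjusted p = 0.97, edgeR). Nab1, a cofactor of EGR factors, stood at 45.3 ± 5.76 CPM in unstimulated, 44.1 ± 13.0 CPM in H-CM and 68.3 ± 7.44 CPM in TME-CM EGCs, higher in TME-CM than in H-CM (a log2 difference of 0.62, with an adjusted p of 0.032 by edgeR). Against unstimulated EGCs, Nab1 and Zeb2 were higher at 24 h and 0 lower, where 9.52% of all genes were called. Egr2, the main transcriptional activator of peripheral myelin genes, had too few counts to be tested.

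Of the 17 tested genes of repair Schwann cells and negative regulators of myelination, 0 were higher and 2 lower in TME-CM than in H-CM EGCs at 24 h. Of all genes, 5.4% were called in that comparison. Sox4 stood at 664 ± 56.4 CPM in unstimulated, 1007 ± 83.4 CPM in H-CM and 758 ± 61.6 CPM in TME-CM EGCs. It was lower in TME-CM than in H-CM (a log2 difference of -0.41, with an adjusted p of 0.030 by edgeR) and higher in H-CM than in unstimulated EGCs (0.60, adjusted p = 0.0041, edgeR), and TME-CM differed from unstimulated EGCs by 0.19 (adjusted p = 0.42, edgeR). Id2, an inhibitor of helix-loop-helix factors, stood at 480.04 ± 52.2 CPM in unstimulated, 632 ± 97.6 CPM in H-CM and 454 ± 71.2 CPM in TME-CM EGCs. It was lower in TME-CM than in H-CM (a log2 difference of -0.48, with an adjusted p of 0.039 by edgeR), with 0.40 for H-CM (adjusted p = 0.19) and -0.09 for TME-CM (adjusted p = 0.84, both edgeR) against unstimulated EGCs. Against unstimulated EGCs, where 9.52% of all genes were called, the neurotrophic ligands Artn and Clcf1 were higher, and the transcription factors Egr1 and Hes1 lower. Of the 13 tested ligands, co-receptors and partners of p75, 0 were called against H-CM (4 at an unadjusted p under 0.05, 1 by DESeq2). Ntf5 and Rtn4 were lower than in unstimulated EGCs, beside the same 9.52% of all genes.

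Of the 15 tested neural adhesion molecules of the immunoglobulin family and their modifying enzymes, 0 were called in TME-CM against H-CM EGCs at 24 h. This held with either tool, with 2 at an unadjusted p under 0.05 and 5.4% of all genes called by edgeR. Against unstimulated EGCs, 4 were lower and 0 higher at 24 h, where 9.52% of all genes were called, 4.7% lower. They were Ncam1, Cadm1, Thy1 and St8sia2, which encodes an enzyme that adds polysialic acid to NCAM1. At 12 h, Ncam1 and Thy1 were lower. The median log2 fold change of the list against unstimulated EGCs was -0.34 at 12 h and -0.22 at 24 h, beside -0.0028 and 0.0044 over all genes.

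Of 15 growth-associated and regeneration genes, 1 was higher and 1 lower in TME-CM than in H-CM EGCs at 24 h, where 5.4% of all genes were called. Gal, which encodes the neuropeptide galanin, stood at 24.5 ± 7.74 CPM in unstimulated, 31.0 ± 7.53 CPM in H-CM and 95.8 ± 51.1 CPM in TME-CM EGCs (against H-CM, a log2 difference of 1.58, with an adjusted p of 0.038 by edgeR). Sprr1a stood at 13.4 ± 2.83 CPM in unstimulated, 7.88 ± 2.01 CPM in H-CM and 2.15 ± 0.400 CPM in TME-CM EGCs (against H-CM, a log2 difference of -1.90, with an adjusted p of 0.00056 by edgeR). Of 12 intermediate filament genes, 3 were lower and 0 higher in TME-CM than in H-CM EGCs. They were Nefm, a neurofilament of neurons (H-CM 34.2 ± 17.8 and TME-CM 9.21 ± 3.86 CPM, log2 fold change -1.80, adjusted p = 0.015), Des, the desmin of muscle (65.6 ± 11.6 and 33.4 ± 4.66 CPM, log2 fold change -0.98, adjusted p = 0.00027), and Lmna (314 ± 25.4 and 233 ± 33.0 CPM, log2 fold change -0.43, adjusted p = 0.037, all edgeR). In unstimulated EGCs, Nefm stood at 19.7 ± 7.72 CPM, between the media, and TME-CM differed from it by -1.06 (adjusted p = 0.14, edgeR), whereas Des (131 ± 11.4 CPM) and Lmna (379.6 ± 26.0 CPM) were highest there. Against unstimulated EGCs at 24 h, Gal was higher and Dpysl3 and Sprr1a lower among the growth-associated genes. Of the filament genes, Nes, Vim, Des and Lmna were lower, with a list median of -0.32 (9.52% of all genes called), and at 12 h Nes, Des and Lmna, with a list median of -0.64 (4.41% called). Des is also a smooth muscle marker of the list above.

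The calls of Sox9, Sprr1a and Des against H-CM were kept in 8 of 8 fits that left out a library. The call of Nefm was lost without replicate 3 of either medium (adjusted p up to 0.054). That of Id2 was lost without H-CM replicate 2 or 3 or TME-CM replicate 1 or 3 (up to 0.19), and that of Sox4 without H-CM replicate 2, 3 or 4 or TME-CM replicate 3 or 4 (up to 0.13). The remaining 3 calls were each kept in 2 of the 8 fits. These were for Nab1 without H-CM replicate 1 or TME-CM replicate 2 (otherwise up to 0.15), for Gal without TME-CM replicate 3 or 4 (otherwise up to 0.0995) and for Lmna without H-CM replicate 3 or TME-CM replicate 4 (otherwise up to 0.11). Calls were also lost for Sox4 with no filter on low counts (adjusted p = 0.058), for Gal with only the 2 groups in the fit (0.088), and for Lmna with no filter (0.054) and with the replicate number as a block (0.058). At 12 h, 1 gene of the 7 lists was called in TME-CM against H-CM EGCs, Nefm, which was lower.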

How the data were processed

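The authors prepared QuantSeq 3′ libraries, removed adapters (fastq-mcf), mapped reads to mm10 (HISAT2), dropped those with several positions and counted the rest per gene (HT-seq Count). They deposited raw counts per gene symbol for 36 libraries. FastQC 0.11.7 and SAMtools 1.5 are named in the submitters' processing notes. The annotation, the strand setting and use of molecular identifiers are not given in the sources used here. Limits on counts therefore cover counting error only. The intervals of fold changes come from edgeR's quasi-likelihood fit and also reflect the spread between libraries.

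Tests were run in edgeR 4.0.16 under R 4.3.3 (filterByExpr, minimum count 10; TMM; robust quasi-likelihood test; Benjamini-Hochberg), with 1 model of 12 libraries per time and 1 of 24 libraries for comparisons of 12 h with 24 h. DESeq2 1.42.0 was an alternative. The SE is the log2 fold change over the root of F, and intervals are 95%. CPM used TMM factors of all 36 libraries. Positions are from GENCODE M21 (GRCm38). Totals ranged from 13518 to 7552509 counts.

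The members and the gene lists were chosen with earlier results of these data known. Named are the 9 members, up to 4 genes a list called in TME-CM against H-CM at 12 h or 24 h with at least 5 CPM, and the 3 genes most like Ncam1 and Nes. Other genes were named after their values were seen, where a count was small. Alternatives were DESeq2's size factors, no filter, the replicate block, only the 2 groups, each library left out, and, after seeing the data, Yam1 left out and a block across both times.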

Additional observations from a re-analysis of the deposited data

Results flagged for a closer look

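In 72 sets of 4 libraries (8 genes with at least 10 counts in each of 9 groups), 6 held a library set apart from the other 3, by Dixon's test at the 95% level, which chance gives in about 1 of 20 sets. Mbp was highest in TME-CM 12 h replicate 2, at 30.0 CPM beside 5.91 CPM in the next library. Pmp22 was lowest in unstimulated 6 h replicate 4, at 45.0 CPM beside 84.1 CPM. Cnp was lowest in TME-CM 12 h replicate 3, at 18.1 CPM beside 29.4 CPM. Gap43 was highest in H-CM 24 h replicate 1, at 342 CPM beside 307 CPM. Ngfr was lowest in unstimulated 6 h replicate 3, at 26.3 CPM beside 272 CPM. L1cam was highest in H-CM 12 h replicate 4, at 34.8 CPM beside 21.9 CPM.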

How the results depend on the processing

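Of 573 recomputed log2 fold changes of the genes named, 510 kept their direction and their side of the threshold, 38 lost and 9 gained a call, and 16 changed sign. The number of members called was within 1.5 times the value given in 193 of 207 recomputed counts. In TME-CM against H-CM at 24 h, it was 1 (Pmp22) instead of 0 with no filter, with DESeq2, with only the 2 groups and with the replicate number as a block, and 0 to 1 on leaving out a library. In TME-CM against H-CM at 12 h, it was 1 (Nes) with DESeq2 and 0 to 1 on leaving out a library. In H-CM against unstimulated at 24 h, it was 2 with DESeq2 and 0 to 2 on leaving out a library. The cause of these changes was not tested. With the block, the log2 fold change of Ncam1 in TME-CM against H-CM at 24 h was 0.026 instead of -0.01. On leaving out a library, it ranged from -0.14 to 0.10, and in the same comparison Mbp ranged from -0.38 to 0.64, Cnp from -0.0020 to 0.18, Gap43 from -0.037 to 0.16 and Ngfr from -0.11 to 0.060. In TME-CM against unstimulated, Pmp22 at 12 h ranged from -0.34 to 0.12 and Mbp at 24 h from -0.13 to 0.80. The deviations of libraries of the same number had correlations of -0.16 to 0.22. With few libraries of a number, these values cannot tell whether the numbers pair the samples. The block moved no other count of members called. It ended the call of Lmna in TME-CM against H-CM at 24 h (adjusted p = 0.058). The block nested in time could not be fitted for 24 h against 12 h, where a block across both times, added after seeing the data, called 0 members as before. CPM on raw totals moved 8 of 81 group means by more than their SD. In H-CM 6 h replicate 4, with 13518 counts, a count of 0 allows up to 222 CPM on the raw total, by counting error only.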
